A study of Mus musculus with 2 samples.

Results

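The genes described here are 38 genes of the cell cycle and of DNA replication, measured in the white matter of wild-type (WT) mice and of mice that lack CD47. They were taken from a list of gene symbols and not by a cut on their values, though the list was chosen with earlier results of these data known. Each gene was read from the brightest of its probe sets, the short groups of probes by which the array measures a transcript. The array carried 18193 genes with a probe set assigned to 1 gene. Of these, 12473 were called measured, which means that the signal was above the floor, the median of all signals of both arrays (106.4), in at least 1 array. Of the 38 genes, 27 were measured, 10 were under the floor in both arrays and 1, Ccnb1, was not analysed here.

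The tissue was the optic nerve with the optic tract, dissected from male mice, the WT mice at 13 to 15 weeks of age and the CD47 knockout mice (genotype "CD47 null", CD47 KO) at 12 to 15 weeks. The CD47 KO is a null mutation and not specific to a cell type. Each genotype was 1 pool on 1 array, so no spread between mice was measured and no test of the genotypes was possible. The pools held 5 WT and 4 CD47 KO mice by the description of the series and the methods, and 4 and 5 by the labelling protocol. The strain was not given in the labels. Cd47 itself was lower in the CD47 KO pool by all of its probe sets, and over the 3 above the floor in each pool 34.3% to 39.5% of the WT signal was left; where these probes lie relative to the deleted part was not examined. In bulk RNA, more cells of a type cannot be told apart from more RNA per cell.

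A cell that leaves rest makes D-type cyclins, which activate Cdk4 and Cdk6. These kinases phosphorylate the retinoblastoma protein, which then releases E2F factors, and these switch on the genes of DNA replication. Genes of mitosis follow later in the cycle, and CDK inhibitors hold the cycle back. In adult white matter mature oligodendrocytes do not divide, whereas oligodendrocyte precursors and microglia can.

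None of the 27 measured genes differed by over 2-fold between the pools. Cyclin D1 (Ccnd1) had the largest difference among the genes with a high signal, 1.63-fold higher in CD47 KO, and the CDK inhibitor gene Cdkn1a had the largest in the other direction, 1.47-fold lower. The genes for mitotic kinases and for the mitotic checkpoint were for the most part under the floor in both pools.

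Genes of mitosis and genes of replication differ in the sequences known to control them. The cell cycle homology region (CHR) is known from genes of mitosis, the E2F site from genes of replication, and the CCAAT box from both. They are shown for 3 genes, given as examples and not as typical of these classes. Cdk1 is the kinase that drives entry into mitosis, Mki67 encodes the proliferation marker Ki67, and Mcm6 is a subunit of the replicative helicase. Each line holds the 250 bases before the RefSeq transcription start (assembly GRCm38.p6, all on the minus strand, written 5′ to 3′), and capitals mark the motif letters found. The places are chr10:69352913-69353162 for Cdk1, chr7:135716380-135716629 for Mki67 and chr1:128359706-128359955 for Mcm6.
Cdk1: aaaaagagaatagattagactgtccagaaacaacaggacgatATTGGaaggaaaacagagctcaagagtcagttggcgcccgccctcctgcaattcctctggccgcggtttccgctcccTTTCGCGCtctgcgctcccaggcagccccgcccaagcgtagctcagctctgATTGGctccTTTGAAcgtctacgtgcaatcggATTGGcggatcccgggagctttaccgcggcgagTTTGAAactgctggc
Mki67: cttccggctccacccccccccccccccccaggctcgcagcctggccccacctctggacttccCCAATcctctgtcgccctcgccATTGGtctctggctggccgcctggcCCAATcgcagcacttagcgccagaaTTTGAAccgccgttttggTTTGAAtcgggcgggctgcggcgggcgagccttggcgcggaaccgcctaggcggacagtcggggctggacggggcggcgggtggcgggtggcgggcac
Mcm6: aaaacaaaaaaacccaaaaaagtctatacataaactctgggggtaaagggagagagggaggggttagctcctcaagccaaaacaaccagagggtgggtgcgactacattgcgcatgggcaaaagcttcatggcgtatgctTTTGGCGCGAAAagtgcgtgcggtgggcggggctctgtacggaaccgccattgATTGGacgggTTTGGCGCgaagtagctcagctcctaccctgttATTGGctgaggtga

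The letters searched on both strands were TTTGAA and its variant TTCGAA for CHR, CCAAT for the CCAAT box, and for E2F the runs TTTCGCGC, TTTGGCGC, TTTCCCGC and TTTGCCGC; in Mcm6 the upstream stretch of capitals is an overlap of E2F letters on both strands. Of the 38 genes, 30 had a promoter in the table, with 34 windows in all. CHR letters were in 6 of the 11 windows of the mitotic genes (54.5%), in 18.2% of the windows of the replication genes and in 17.1% of all 32851 windows. E2F letters were in 4 of the 11 windows of the replication genes (36.4%), in 9.09% of the windows of the mitotic genes and in 1.86% of all windows. CCAAT was in 22 of the 34 windows (64.7%) and in 33.8% of all. By signal, CHR letters were in 6 of the 24 windows of measured genes and 2 of the 9 of genes under the floor, E2F letters in 5 and 1, and CCAAT in 16 and 5. A match of letters is a description of the sequence, and binding was not measured.

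The D-type cyclins and their kinases, the first step of cell cycle entry, were the one group of more than 2 genes in which every gene had a higher signal in CD47 KO (5 of 5, median log2 ratio 0.17). Of all measured genes 46.8% had a log2 ratio above 0. The group is small and was 1 of several looked at, so nothing particular to it is read from this count. Ccnd1 gave 3281 in the WT pool and 5358 in the CD47 KO pool (log2 ratio 0.71), and 2.77% of all measured genes had a higher ratio. Its other probe sets went from 2398 to 4832 (log2 ratio 1.01, or 2.02-fold) and from 691 to 858 (log2 ratio 0.31). All 3 probe sets of Ccnd1 were thus higher in CD47 KO, and 1 of them was just past 2-fold, the only one of the 52 probe sets of these genes above the floor that was.

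The other D-type cyclins differed little. Ccnd2 went from 2458 to 2706 (log2 ratio 0.14), and its 6 probe sets above the floor had log2 ratios from 0.11 to 0.31. Ccnd3 went from 876 to 984 (log2 ratio 0.17), and its second probe set had a log2 ratio of 0.16. The probe sets of each gene lay on 1 side of 0, with values smaller than that of the brightest probe set of Ccnd1.

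Cdk4, a kinase partner of these cyclins, went from 837 to 868 (log2 ratio 0.05), with other probe sets at 0.04 and 0.34. Cdk6, the other partner, went from 118 to 194 (log2 ratio 0.71) by its brightest probe set. Its second probe set went from 146 to 137 (log2 ratio -0.10). The Cdk6 ratio therefore depended on the probe set; by the median of both it was 0.31, and with the floor at the 60th percentile of all signals it was 0.05.

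The spread between probe sets of the same gene gives the only repeat measurement on these arrays. Among probe sets that exceeded the floor on each array, 11653 pairs could be formed in 4740 genes. Their log2 ratios differed with an SD of 0.36, and 0.74 was the size that covered 95% of pairs. This size was 0.85 where the dimmer probe set was under 4 times the floor and 0.55 where both were brighter. The pair of Cdk6 differed by 0.81, the largest difference among the 37 such pairs of the genes described here. It lay under the 0.85 of dim pairs. The highest and lowest probe sets of Ccnd1, both bright, differed by 0.70 (log2 ratios 1.01 and 0.31), past the 0.55 of bright pairs. The size of the Ccnd1 ratio thus also depended on the probe set, though its sign did not. The spread between probe sets holds no variation between mice or between hybridisations.

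Downstream of the D-type cyclins, the log2 ratios were small. Rb1, which encodes the retinoblastoma protein that these kinases inactivate, went from 2025 to 2378 (log2 ratio 0.23). E2f1, a factor that this protein restrains, was under the floor, with signals of 47.3 and 53.2. Ccne2, an E-type cyclin, went from 169 to 184 (log2 ratio 0.12), and its partner kinase gene Cdk2 from 227 to 242 (log2 ratio 0.09). The other E-type cyclin gene, Ccne1, was under the floor with 81.9 and 50.7.

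**Figure D1:**
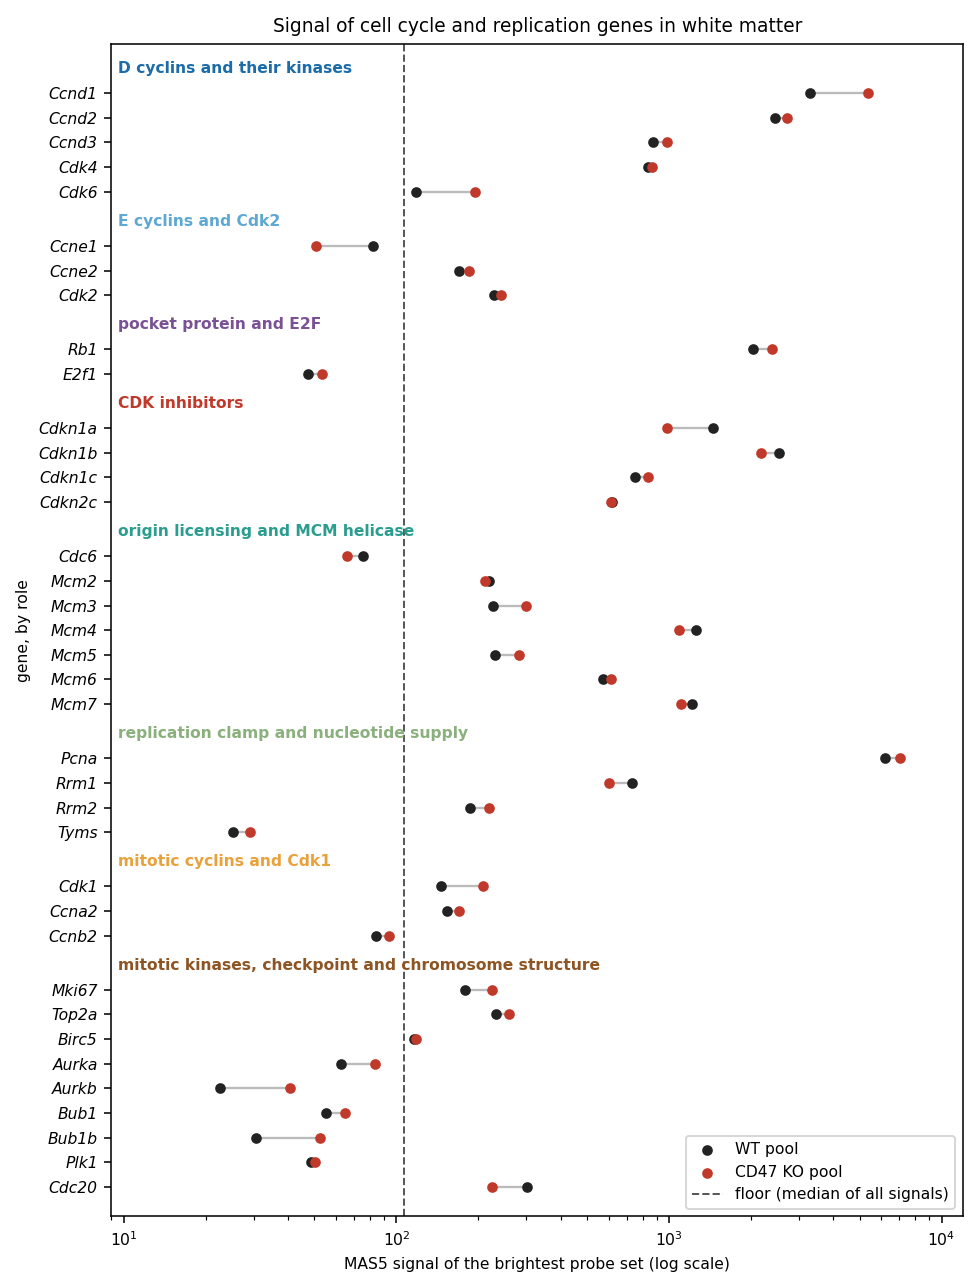
MAS5 signal (horizontal, log scale) of the brightest probe set of the 37 genes with a value, grouped by role, with WT as black and CD47 KO as red points; a dashed line marks the floor, 106.4. The widest gap among the brighter genes is that of Ccnd1, from 3281 to 5358, and 10 genes lie left of the floor in both pools.

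Of the 4 CDK inhibitors 3 had a log2 ratio below 0, 1 of them close to 0, and 1 had a ratio above 0, with a median of -0.11. Cdkn1a, which encodes p21 and is a classical target of p53, went from 1444 to 984 (log2 ratio -0.55), and 5.42% of all measured genes had a lower ratio. Its second probe set gave no such difference, going from 449 to 446 (log2 ratio -0.01). The lower signal of Cdkn1a thus rested on 1 of 2 probe sets, and the median of both was -0.28.

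Cdkn1b, which encodes p27, an inhibitor that accumulates in resting cells, went from 2527 to 2173 (log2 ratio -0.22), and its dim second probe set from 110 to 69.3, which is under the floor (log2 ratio at the floor -0.05). Cdkn1c, which encodes p57, went from 748 to 835 (log2 ratio 0.16). Cdkn2c, which encodes p18 and acts on Cdk4 and Cdk6, had nearly equal signals of 616 and 614. Each of these differences was smaller than the SD of 0.36 between probe sets of a gene.

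Genes of origin licensing and of the replicative helicase went both ways. All 6 helicase subunits were measured, 3 above 0 and 3 below, with a median log2 ratio of 0.03. Mcm3 went from 226 to 300 (log2 ratio 0.41) and its other probe sets above the floor had log2 ratios of 0.36 and 0.03. Mcm5 went from 229 to 282 (log2 ratio 0.30), and Mcm2 from 218 to 212 (log2 ratio -0.04). The subunits of this complex thus had no common direction.

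Mcm4 went from 1252 to 1087 (log2 ratio -0.20), and its other probe set from 1249 to 1075. Mcm7 went from 1215 to 1108 (log2 ratio -0.13), but 2 of its 4 probe sets had log2 ratios of 0.13 and 0.15. Mcm6, whose promoter is printed above, went from 574 to 612 (log2 ratio 0.09) and by its second probe set from 510 to 426 (log2 ratio -0.26). The sign for Mcm6 and Mcm7 therefore depended on the probe set. Cdc6, which loads the helicase onto origins, was under the floor with 75.3 and 66.1.

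Pcna, the sliding clamp of DNA polymerases that also serves in DNA repair, had a signal far above the floor in both pools, going from 6206 to 7046 (log2 ratio 0.18). Of the subunits of ribonucleotide reductase, which supplies deoxynucleotides, Rrm2 went from 187 to 219 (log2 ratio 0.23). Rrm1 went from 734 to 601 by its brightest probe set (log2 ratio -0.29). Its second probe set went from 189 to 242 (log2 ratio 0.36), so that Rrm1 had no settled direction. Tyms, thymidylate synthase, was under the floor with 25.2 and 29.0.

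**Figure D2:**
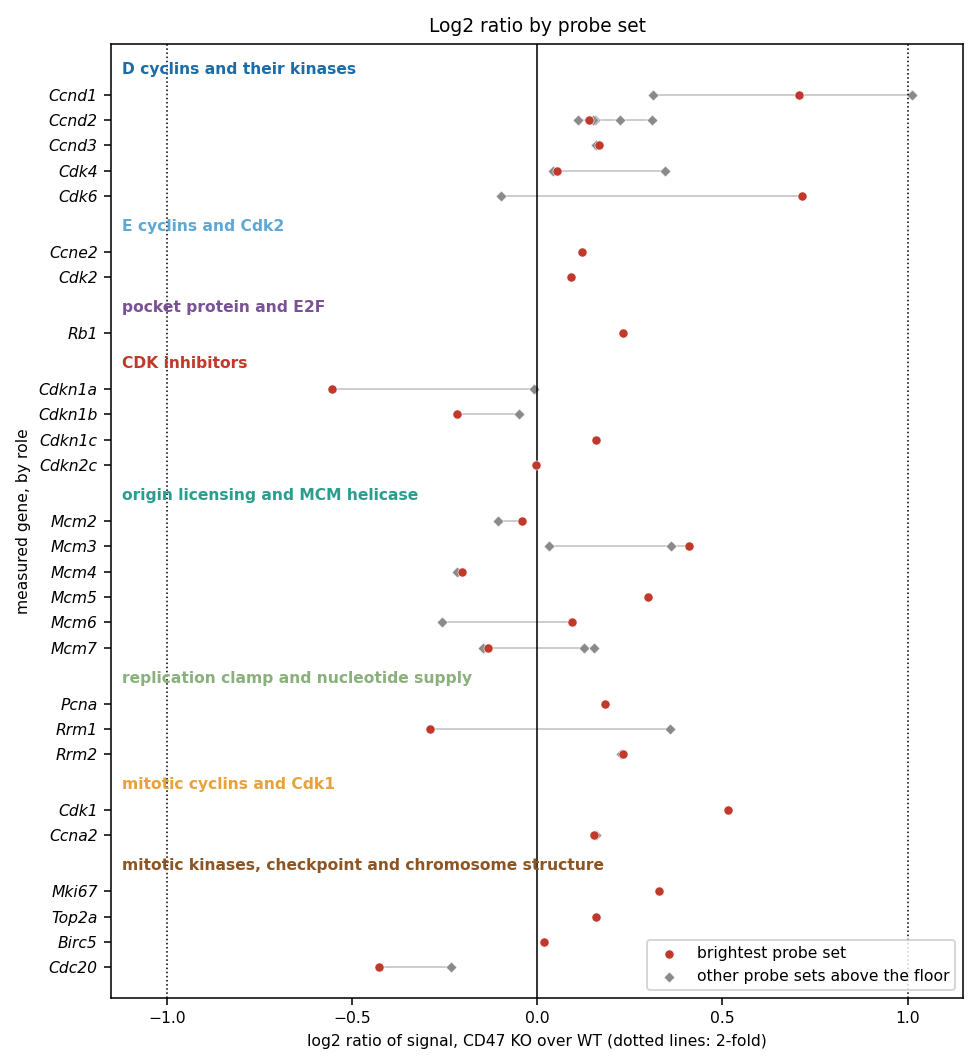
Log2(CD47 KO/WT) on the horizontal axis for each probe set above the floor of the 27 measured genes, by role; red circles are the brightest probe sets, grey diamonds the others, and the dotted lines mark 2-fold. The 3 probe sets of Ccnd1 lie to the right of 0, those of Cdk6, Mcm6, Mcm7 and Rrm1 lie on both sides, and 1 of 2 for Cdkn1a lies at -0.01.

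In all, 16 of the 27 genes had at least 2 probe sets above the floor; for 12 of these all probe sets lay on the same side of 0, and for 4 (Cdk6, Mcm6, Mcm7 and Rrm1) they lay on both sides. Of the 52 probe sets above the floor, 36 had a log2 ratio above 0 and 16 below. With 6 of the 52 from Ccnd2 alone, these probe sets are not separate genes. The share among all probe sets above the floor was not computed, so nothing particular to these genes is read from the count.

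Genes of mitosis were near or under the floor. Cdk1 went from 146 to 208 (log2 ratio 0.51), and 5.25% of measured genes had a higher ratio; a floor raised to the 60th percentile gave a log2 ratio of 0.15. Ccna2, cyclin A2, a partner of Cdk1 and Cdk2, went from 153 to 170 (log2 ratio 0.15). Ccnb2, cyclin B2, was just under the floor with 84.5 and 94.0, whereas the dimmest measured gene was Birc5 (survivin, a subunit of the chromosomal passenger complex), just above it with 116 and 118.

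The 4 genes of the last group that were measured were also close to the floor. Mki67 went from 178 to 224 (log2 ratio 0.33) and Top2a, the DNA topoisomerase of dividing cells, from 231 to 258 (log2 ratio 0.16). Cdc20, an activator of the anaphase-promoting complex, went the other way, from 301 to 224 (log2 ratio -0.43), and its second probe set from 160 to 137 (log2 ratio -0.23). The measured genes of mitosis therefore did not share a direction, with Cdc20 lower and the other 5 higher in CD47 KO.

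The kinase genes Aurka (62.8 and 83.3), Aurkb (22.6 and 40.5) and Plk1 (48.7 and 50.3) were under the floor in WT and CD47 KO, and so were the spindle checkpoint genes Bub1 (55.3 and 64.8) and Bub1b (30.6 and 52.3). Over the 10 genes under the floor, with 21 probe sets, the highest signal was 98.5. Signals in this range were not turned into ratios, and no direction is read from them. The highest signal was that of a second probe set of E2f1, which went from 20.6 to 98.5.

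Over the 27 measured genes, 19 had a log2 ratio above 0 (70.4%) and the median was 0.14; over all 12473 measured genes the share was 46.8% and the median -0.02. The number over 2-fold higher was 0, where 1.21% of all measured genes were, and the number over 2-fold lower was 0, where 0.818% were. Over 1.5-fold higher were 2 of the 27, Ccnd1 and Cdk6, where 4.02% of all were, and over 1.5-fold lower were 0, where 4.68% of all were. With 2 genes behind the one count above 0, and the Cdk6 value resting on 1 of 2 probe sets, nothing particular to the 27 genes is read from these counts.

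Ratios of dim genes varied more than those of bright genes. The measured genes were split by their mean signal into 4 classes of about equal size. In the dimmest class, which held 13 of the 27 genes, the SD of the log2 ratio over all genes was 0.44 and 7.18% were over 1.5-fold higher. In the brightest class, with 5 of the 27 (Ccnd1, Ccnd2, Rb1, Cdkn1b and Pcna), the SD was 0.27 and 2.05% were over 1.5-fold higher. Ccnd1 and Cdk6, with the same log2 ratio, thus lay in the brightest and the dimmest class. Of the 13 genes in the dimmest class 11 had a log2 ratio above 0, with a median of 0.16, where the median of all genes in that class was -0.06. Of the 2 in the next class 1 was above 0, and of the 7 in the class below the brightest 3 were, with a median of -0.13. Of the 5 in the brightest class 4 were above 0, with a median of 0.18, where the median of all genes in that class was 0.002. The share of all genes above 0 was not computed for each class, so nothing particular to the 27 genes is read from these counts.

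**Figure D3:**
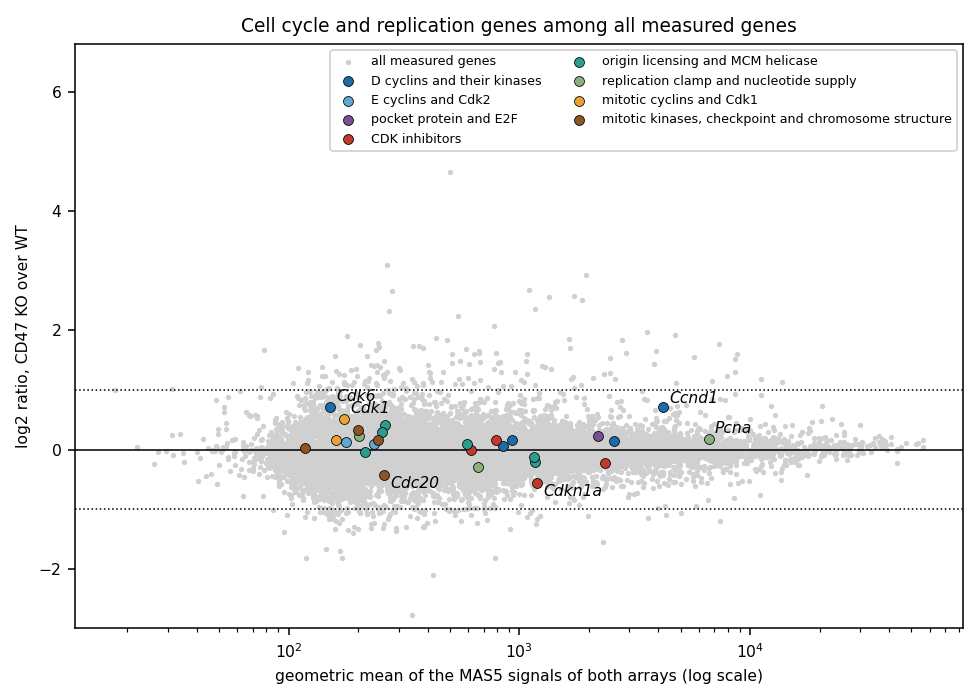
Log2(CD47 KO/WT) on the vertical axis against the geometric mean of the signals of both arrays (horizontal, log scale) for the 12473 measured genes (grey) and the 27 measured cell cycle and replication genes (coloured by role); the dotted lines mark 2-fold. No coloured point lies past a dotted line, and Ccnd1 and Cdk6 have the highest ratios, both 0.71, the former to the right and the latter to the left.

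The other genes of the pathway, taken from 4 lists, were divided between higher and lower. Of 167 such genes 124 were measured, 60 with a log2 ratio above 0 and 64 below, with a median of -0.004; 1 passed 2-fold upward and 0 downward. That gene was Cks2, a small protein that binds Cdk1, which went from 118 to 258 (log2 ratio 1.13, or 2.19-fold); by the median of its probe sets the log2 ratio was 0.79, and 0.46 when the 60th percentile served as the floor. Prc1, a microtubule bundler of the dividing cell, went from 230 to 120 (log2 ratio -0.94, and -0.30 under that higher floor). Ube2c, a ubiquitin-conjugating enzyme of mitotic exit, went from 98.1 in WT, under the floor, to 156 (at least 1.46-fold higher). Over the list of other mitosis genes 29 of 50 were measured and 21 were under the floor, 13 were above 0 and 16 below, and the median was -0.06.

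Among other genes of replication 38 of 48 were measured, with 17 above 0, 21 below and a median of -0.02. Rfc5 and Rfc3 encode subunits of replication factor C, which loads the clamp Pcna onto DNA. Rfc5 went from 134 to 236 (log2 ratio 0.81, and 0.33 under the higher floor). Rfc3 went from 187 to 113 (log2 ratio -0.73, and -0.29 by the median of its probe sets). Gins3, a part of the replicative helicase, went from 161 to a signal just under the floor, 106.0 (at least 1.52-fold lower). Subunits of the same complex were thus on opposite sides of 0.

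Among other regulators of cell cycle entry 35 of 42 were measured, 20 of them above 0, with a median of 0.01. Myc, a transcription factor that promotes growth and entry into the cycle, went from 180 to 270 (log2 ratio 0.59). Lin9, a subunit of the complex that binds CHR elements, went from 77.7, under the floor, to 140 (at least 1.31-fold higher, a log2 ratio of 0.39, and of 0.85 without a floor). Fbxw7, the substrate receptor of a ubiquitin ligase for cyclin E and Myc, went from 862 to 669 (log2 ratio -0.37).

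The p53 and DNA damage list, to which Cdkn1a is related as a target of p53, had 22 of 27 genes measured, 10 above 0 and 12 below, with a median of -0.03. The lowest were Perp, a p53 target at desmosomes (2055 to 1354, log2 ratio -0.60), and the sestrin genes Sesn2 (198 to 133, log2 ratio -0.57, but -0.08 under the higher floor) and Sesn1 (4226 to 2854, log2 ratio -0.57). Without probe sets marked for cross-hybridisation Sesn1 had a log2 ratio of -0.27. The list as a whole had no common direction.

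Among the cell type lists, those of microglia and neurons had medians much farther from 0 than the 27 genes. Those of oligodendrocyte precursors (0.16), myelinating oligodendrocytes (0.11) and astrocytes (0.10) were of the same size as that of the 27 genes. The medians of endothelium (-0.40), pituitary (0.40) and blood progenitors and granulocytes (0.30) lay between these in size. Of the 12 microglial markers 11 were measured and none of these was under the floor; 9 were higher in CD47 KO, with a median log2 ratio of 0.96 and a summed signal that was 33653 for WT against 65781 for CD47 KO, 1.95-fold. Trem2 (436 to 2795) and Fcrls (556 to 3255) had the highest ratios and Csf1r (15765 to 21741) the highest signal, while Tmem119 and P2ry12 had log2 ratios of -0.52 and -0.14. Markers of oligodendrocyte precursors were measured for 8 of 8 genes, and 6 of the 8 were higher in CD47 KO. Their summed signal was 37981 in WT and 39518 in CD47 KO, most of which was 1 gene, Bcas1 (29895 and 30139). Cspg4 (log2 ratio 0.58) and Vcan (0.54) had the highest ratios, but by the median of its probe sets Cspg4 had 0.14. The defining marker Pdgfra had 3043 in WT and 2929 in CD47 KO. Markers of microglia and of oligodendrocyte precursors, which can divide in adult white matter, were therefore present in both pools. Their part in the ratios of Ccnd1 and the other genes was not tested.

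All 7 measured myelin genes were far above the floor, with Mobp the brightest (53099 and 59026). They mark myelin in general, so the optic nerve and optic tract of the label were not checked by them. The highest ratios in that list were Opalin (log2 ratio 0.62) and Mobp (0.15). Astrocyte markers were measured for 7 of 7, 5 of them above 0 and 2 below. Gfap had a log2 ratio of 0.52, Aqp4 of 0.31 and S100b, the brightest, of -0.04. Markers of neurons were also measured, 8 of 9, and all 8 were lower in CD47 KO, with a summed signal of 15399 and 7986; Nefm (log2 ratio -1.32) and Slc17a6 (-1.28) were the lowest and Snap25 the brightest. The 5 measured endothelial markers of 6 were lower too, with a summed signal of 17036 and 14139 (Kdr -0.79 and Flt1 -0.41, Itm2a the brightest). Pituitary genes were measured for 5 of 6, with Gh (2191 to 6908) and Pomc (379 to 1166) higher and Cga (460 to 185) lower, and those of blood progenitors and granulocytes for 6 of 8, with Ngp (395 to 644) and Ltf (144 to 213) higher and S100a8 the brightest. The part of these differences in the ratios of the cell cycle genes was not tested.

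**Figure D4:**
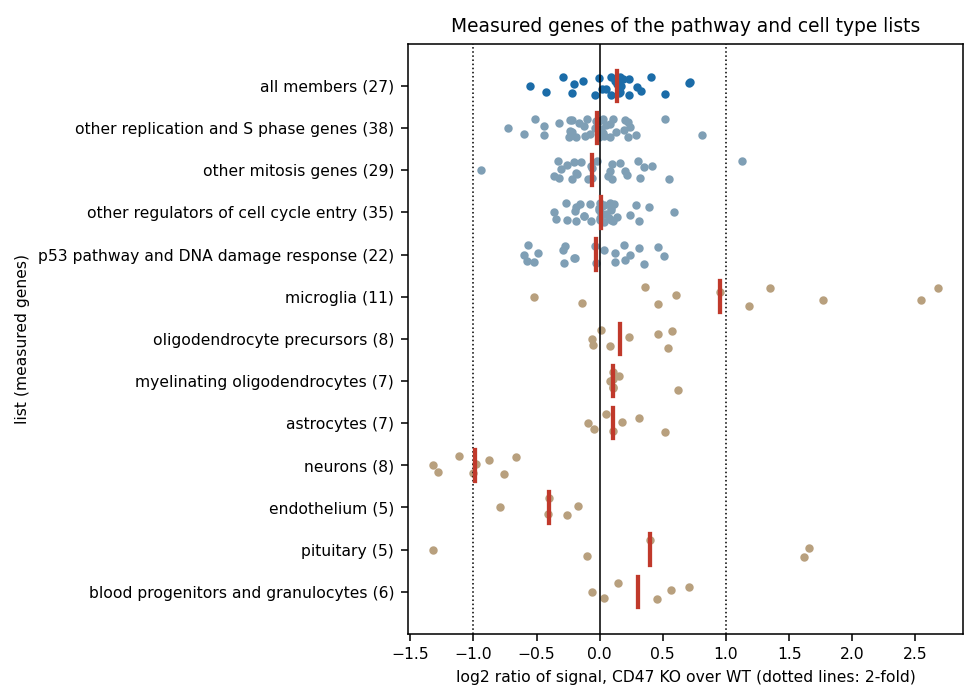
Log2(CD47 KO/WT) on the horizontal axis for each measured gene of the 27 cell cycle and replication genes, of the 4 other pathway lists and of the 8 cell type lists (number of measured genes in brackets), with the median of each as a red bar; the dotted lines mark 2-fold. The pathway lists lie close to 0, with medians from -0.06 to 0.01 and 0.14 for the 27 genes, whereas the median was 0.96 for microglia and -0.99 for neurons.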

How the data were processed

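Pooled total RNA (250 ng) was made into biotin-labelled cRNA with a 3′ IVT kit and hybridised to 1 Affymetrix mouse array per genotype. The authors processed the scans in Expression Console; the submitters' processing notes name MAS5, with no version given. The deposited values are signal intensity on a linear scale, 1 value per probe set. Of 45101 probe sets, 64 were controls; 34945 others had 1 gene symbol in the platform annotation and were used, 932 had several and 9160 none. 1 listed gene was named through its gene identifier.

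Each gene was read from its brightest probe set by mean log2 signal. Signals under the floor, the 50th percentile of all signals (106.4), were raised to it before log2(CD47 KO/WT) was computed, which shortens the ratios of dim genes and makes a value with 1 pool at the floor a bound. Ratios over 2-fold, the size used in the study, and over 1.5-fold were counted. With 1 array per genotype no p-value was computed; precision is limited by the number of arrays. Named were all 38 genes, the 3 of each pathway list with the largest absolute log2 ratio and, of each cell type list, the brightest and the 2 with the largest absolute log2 ratio; Pdgfra, Tmem119, P2ry12 and Cga were named after their values were seen. The members and lists were chosen with earlier results of these data known. Promoters came from RefSeq. Scripts ran in Python 3.11.15 with pandas 2.3.3 and statsmodels 0.14.6 and were tested on simulated data. Alternatives set the floor to the 40th or the 60th percentile or used none; others were quantile normalisation, median centring, loess (span 0.3), the median over a gene's probe sets, and leaving out probe sets marked for cross-hybridisation.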

Additional observations from a re-analysis of the deposited data

How the results depend on the processing

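The count of genes over 2-fold stayed at 0 in both directions under all 9 alternatives, and the 27 genes gave 234 values, of which 228 had the direction given above and 7 moved by more than 0.26, the SD of 1 probe set. Without a floor, or with it at the 40th percentile, the values of these 27 genes could not change. All 27 exceeded the floor in both pools, so these 2 settings do not test their direction. Directions turned in 6 values: for Cdkn2c, close to 0 throughout, with median centring (log2 ratio 0.02), quantile normalisation (0.015) and loess (0.012), and, by choice of probe set, for Mcm6 (-0.08), Mcm7 (0.13) and Rrm1 (0.03). The count over 1.5-fold higher was 1 (Ccnd1) both for a floor at the 60th percentile and for the median over a gene's probe sets. Ccnd1 ranged from 0.70 to 0.74 over the alternatives. The number measured was 31 with the floor at the 40th percentile, which adds Aurka, Ccnb2, Ccne1 and Cdc6, and 24 at the 60th, which drops Birc5, Ccna2 and Ccne2. It was lowest, 22, without probe sets marked _x_at, _s_at or _a_at, which drops Birc5, Cdk2, Mcm5, Mcm7 and Top2a, and 26 without those marked _x_at or _s_at, which drops Mcm5. The median of the p53 and DNA damage list was -0.20 and -0.11 under these 2 settings. Over all measured genes, those over 2-fold numbered 250 higher and 250 lower without a floor, 212 and 173 at the 40th percentile and 111 and 55 at the 60th, against 151 and 102. Depth is not known for arrays; 13 of the 27 genes lie in the dimmest class, where ratios vary most. No paired analysis was possible because each genotype had 1 array.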
